A study of Mus musculus with 12 samples.

Results

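Heterozygous female thymic regulatory T (Treg) cells with and without the Foxp3 enhancer CNS4 were compared across all genes. The comparison used 6 of the 12 libraries of the series, chosen by their genotype and sex labels. The 3 control libraries came from females labelled CNS4 floxed heterozygotes, in which the edited allele still carries the enhancer. The 3 others came from females labelled CNS4 knockout heterozygotes. All 6 were CD4+Foxp3+ cells of the C57BL/6 strain, isolated by flow cytometry, left untreated and lysed in TRIzol, and their total RNA went into SMARTer Stranded libraries. The mice were matched for age, which the labels do not state. The other 6 libraries, 3 from males labelled CNS4 floxed (wild type) and 3 from males labelled CNS4 knockout, shared the model fit and appear only beside the female values. Whether the libraries are from different animals is not stated, and the p-values then cover only the spread between these samples, which may be technical. The labels also do not say whether the sort separated the cells by which Foxp3 allele they use, and the thymus is named in the series title and, as the letters Thy, in the sample titles.

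Treg cells are CD4 T cells that hold back immune responses, and Foxp3 is the transcription factor that defines them. Its gene lies on the X chromosome and is governed by a promoter and several conserved noncoding sequences, of which CNS4 is a distal enhancer. A female cell uses only 1 of its X chromosomes, so the cells of a heterozygote are a mosaic of those using the edited allele and those using the other. Treg cells in the thymus are themselves a mixture of newly formed cells and of older, activated cells that have come back from the periphery, and the latter carry chemokine receptors and receptors for cytokines of the IL-1 family.

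Gene counts ran from 12423335 to 16154017 in the 6 libraries, and 12411 of the 29806 genes with reads passed the filter on low counts. Between 95.8 and 97.2% of the reads of protein-coding genes in a library fell in genes of the plus strand, so minus-strand genes are poorly counted, and the strand is given with each that is named. The sorted cells carried the 10 CD4 T and Treg markers looked for, with a summed level of 8563 to 10359 CPM, CPM being counts scaled to library size. Cd4 itself lies on the minus strand, and its counts ran from 117 to 198. Values below are CPM in the order of libraries 1, 2 and 3, and fold changes are knockout over floxed on the log2 scale.

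The knockout libraries were not alike. On the first principal component of the 6 female libraries (64.7% of their variance), knockout libraries 1 and 3 scored 70.6 and 65.8, while knockout library 2 scored -23.9 and the floxed libraries -10.5, -53.0 and -49.1. Knockout library 2 thus lay within the range of the floxed libraries. Each result below is therefore read per library, and the values that change without knockout library 2 are given.

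Foxp3, the gene that CNS4 serves, stood at 2582, 2658 and 2657 CPM in floxed and 685, 1824 and 825 CPM in knockout cells. The groups did not overlap, and knockout library 2 lay far above the other knockout libraries. The mean was 2632 ± 43.8 CPM against 1111 ± 621 CPM (SD, n = 3 each), and Foxp3 did not pass the threshold of 0.05 (log2 fold change -1.24, SE 0.31, edgeR adjusted p = 0.103, from the quasi-likelihood test of edgeR, Benjamini-Hochberg adjusted over all tested genes). Without knockout library 2 the change was -1.79 (SE 0.16, edgeR adjusted p = 5.7e-04), and it was past the threshold also by DESeq2 (-1.25, adjusted p = 0.00708) and by limma-voom with quality weights (-1.65, adjusted p = 3.5e-04). Over 16 alternatives it ran from -1.79 to -0.53, and the adjusted p from 3.5e-04 to 1. The cells had been sorted on Foxp3, and 856 exonic bases of the gene overlap genes of the opposite strand. In these bulk samples, fewer cells using an allele and less RNA per cell cannot be told apart.

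Other genes that define Treg cells went different ways. Il2ra, the high-affinity IL-2 receptor chain, stood at 2298, 2370.2 and 2378 CPM in floxed and 3163, 2191 and 2435 CPM in knockout cells, with the groups overlapping (log2 fold change 0.14, SE 0.16, edgeR adjusted p = 0.618). Ctla4, an inhibitory receptor, stood at 1016, 1027 and 895 CPM in floxed and 1759, 1168 and 1329 CPM in knockout cells, with all knockout values above the floxed ones, short of the threshold (log2 fold change 0.53, SE 0.17, edgeR adjusted p = 0.162). Gpr83, a G protein-coupled receptor used as a Treg marker, fell. It stood at 1138, 1094 and 1014 CPM in floxed and 436, 626 and 556 CPM in knockout cells (log2 fold change -1.0, SE 0.13, edgeR adjusted p = 0.0265), so that even knockout library 2 lay well under the lowest floxed library. Its fall stayed past the threshold without knockout library 2 and after removal of the trend on GC content described below. It did not pass with any other female library left out.

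In all, 25 of 12411 genes passed the threshold (0.201% of the genes tested), 23 higher (0.185%) and 2 lower (0.0161%) in knockout cells. The median change over all tested genes was -0.02, and 2378 genes (19.2%) had an unadjusted p under 0.05. Adjusted p-values of the 25 lay between 0.0265 and 0.0478 by edgeR, close to the threshold. All 25 lie on the plus strand, and none had overlapping values between the groups, a state found in 25.0% of all tested genes. The count depends on the libraries. It was 0 when floxed library 1, 2 or 3 or knockout library 1 or 3 was left out, with 1207 to 2324 genes then at an unadjusted p under 0.05, and 3089 of 13029 (23.7%) when knockout library 2 was left out. The 6 female libraries fitted alone called 0 by edgeR (smallest adjusted p 0.119, 2009 genes at an unadjusted p under 0.05), and 0 with the replicate number as a block (0.127 and 2875). DESeq2 called 706 (5.69%) and limma-voom 5462, both including all 25. All 25 kept their direction under each of the 17 alternatives in which they were tested.

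**Figure D1:**
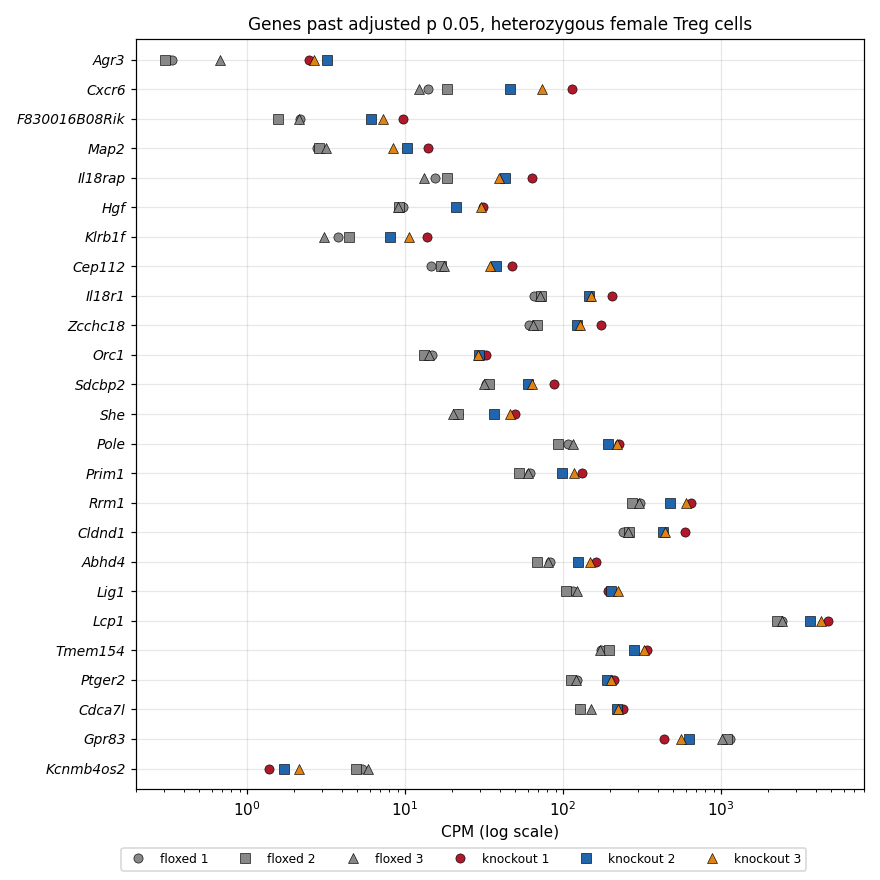
CPM (log scale) of the 25 genes past the threshold in each of the 6 female libraries, grey symbols for floxed and coloured symbols for knockout libraries 1, 2 and 3. In every gene the 3 knockout values lie on one side of the 3 floxed values, and knockout library 2 (blue) is often the closest to them.

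The largest rise by the naming rule was that of Cxcr6, a chemokine receptor of activated and tissue-seeking T cells. It stood at 14.0, 18.4 and 12.4 CPM in floxed and 115, 46.3 and 74.0 CPM in knockout cells (log2 fold change 2.39, SE 0.35, edgeR adjusted p = 0.0334). Knockout library 1 was highest, and the lowest knockout library still lay above every floxed one. Both subunits of the receptor for the cytokine IL-18 rose as well. Il18r1, the subunit that binds IL-18, stood at 66.1, 72.4 and 72.0 CPM in floxed and 203, 146 and 149.8 CPM in knockout cells (log2 fold change 1.25, SE 0.19, edgeR adjusted p = 0.0362). Il18rap, the accessory subunit needed for signalling, stood at 15.6, 18.4 and 13.2 CPM in floxed and 63.9, 43.2 and 39.5 CPM in knockout cells (log2 fold change 1.64, SE 0.25, edgeR adjusted p = 0.0362). For both subunits knockout libraries 2 and 3 were near each other and library 1 was highest. Klrb1f, of the C-type lectin-like receptors first known from natural killer cells, stood at 3.78, 4.45 and 3.06 CPM in floxed and 13.8, 8.08 and 10.7 CPM in knockout cells (log2 fold change 1.53, SE 0.25, edgeR adjusted p = 0.0426). Its call was lost after removal of the GC trend (1.25, edgeR adjusted p = 0.0623, between 2.2e-06 and 0.935 over 17 alternatives).

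Further surface proteins were among the genes past the threshold that lie outside the naming rule and were picked out after their values were seen. Ptger2, a receptor for prostaglandin E2, stood at 122, 113 and 121 CPM in floxed and 212, 190.0 and 201 CPM in knockout cells (log2 fold change 0.76, SE 0.10, edgeR adjusted p = 0.0265), and its knockout libraries differed little among themselves. Tmem154, a transmembrane protein, stood at 175, 196 and 173 CPM in floxed and 339, 280.3 and 329 CPM in knockout cells (log2 fold change 0.80, SE 0.10, edgeR adjusted p = 0.0265). Cldnd1, a protein with a claudin domain, stood at 242, 263 and 259 CPM in floxed and 594, 429.8 and 441 CPM in knockout cells (log2 fold change 0.94, SE 0.14, edgeR adjusted p = 0.0334). In both genes library 2 was the lowest of the knockout libraries and lay above all floxed ones.

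Orc1, Pole, Prim1, Rrm1 and Lig1, which act in DNA replication, were among the 25, and of these Orc1 and Prim1 are not in the list of S phase genes. Orc1, the largest subunit of the origin recognition complex, stood at 14.8, 13.3 and 14.2 CPM in floxed and 32.6, 29.6 and 29.1 CPM in knockout cells (log2 fold change 1.11, SE 0.17, edgeR adjusted p = 0.0362). Pole, the catalytic subunit of DNA polymerase epsilon, stood at 108, 93.5 and 116 CPM in floxed and 228, 195 and 219.8 CPM in knockout cells (log2 fold change 1.02, SE 0.14, edgeR adjusted p = 0.0265). All 3 knockout libraries, library 2 included, lay close together for both genes and apart from the floxed libraries. Prim1, the catalytic subunit of primase, stood at 61.9, 52.6 and 60.4 CPM in floxed and 132, 98.2 and 118 CPM in knockout cells (log2 fold change 1.0, SE 0.15, edgeR adjusted p = 0.0362). Rrm1, the large subunit of the ribonucleotide reductase that supplies deoxynucleotides, stood at 309, 274 and 302 CPM in floxed and 648, 475 and 601 CPM in knockout cells (log2 fold change 0.96, SE 0.15, edgeR adjusted p = 0.0362). Lig1, the ligase that seals Okazaki fragments, stood at 116, 105 and 123 CPM in floxed and 192, 202 and 225 CPM in knockout cells (log2 fold change 0.85, SE 0.14, edgeR adjusted p = 0.0458), and here library 1 was the lowest of the knockout libraries. Prim1 was picked out after its values were seen. After removal of the GC trend the log2 fold change of Pole was 1.61. Orc1 shares 376 exonic bases with genes of the opposite strand, Lig1 247 and Pole 78.

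Genes of this kind are classic targets of E2F factors, so the promoters of these rising genes are shown. RefSeq (GRCm38.p6) held a promoter window for 4 of the 5. The 100 bases before the start of 3 of them are printed on the plus strand, where these genes lie, with a match to the E2F-type motifs TTCCCGC or TTGGCGC, searched on both strands, in capitals.
Prim1 (chr10:128015115-128015214): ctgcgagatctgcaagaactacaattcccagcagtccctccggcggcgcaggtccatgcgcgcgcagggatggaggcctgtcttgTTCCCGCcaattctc
Rrm1 (chr7:102441595-102441694): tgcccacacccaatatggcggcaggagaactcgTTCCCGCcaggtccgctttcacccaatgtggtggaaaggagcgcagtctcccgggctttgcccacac
Orc1 (chr4:108579354-108579453): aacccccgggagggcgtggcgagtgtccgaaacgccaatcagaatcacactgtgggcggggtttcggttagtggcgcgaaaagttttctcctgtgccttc
The match begins at position -15 from the start in Prim1 and -67 in Rrm1. Neither string was found in the Orc1 window, and 1 of the 3 Lig1 windows held a match. Other forms of E2F-type motifs were not searched for, so a window without a match may still hold one. Of 32851 windows of 300 bases, 250 before and 50 after a start, 6.81% held a match. A match describes the letters and says nothing of a factor's binding.

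The remaining rises were of mixed kind. Map2, a microtubule-associated protein best known from neurons, stood at 2.77, 2.87 and 3.18 CPM in floxed and 14.1, 10.4 and 8.41 CPM in knockout cells (log2 fold change 1.89, SE 0.23, edgeR adjusted p = 0.0265). Hgf, the hepatocyte growth factor, stood at 9.79, 9.14 and 9.12 CPM in floxed and 31.1, 20.9 and 30.5 CPM in knockout cells (log2 fold change 1.56, SE 0.21, edgeR adjusted p = 0.0265). Their floxed values lay within a narrow band, far under the lowest knockout library. Zcchc18, a zinc finger gene and the only one of the 25 on chromosome X, stood at 60.8, 68.3 and 64.8 CPM in floxed and 174, 123 and 128 CPM in knockout cells (log2 fold change 1.13, SE 0.15, edgeR adjusted p = 0.0265). Cep112, a centrosomal protein, stood at 14.7, 17.0 and 17.8 CPM in floxed and 47.5, 37.7 and 34.6 CPM in knockout cells (log2 fold change 1.28, SE 0.19, edgeR adjusted p = 0.0362). In both, knockout libraries 2 and 3 were alike and library 1 was highest. Sdcbp2, a syntenin with PDZ domains, stood at 32.8, 33.9 and 31.6 CPM in floxed and 87.6, 60.5 and 63.6 CPM in knockout cells (log2 fold change 1.11, SE 0.17, edgeR adjusted p = 0.0362), and She, an adaptor with an SH2 domain, at 21.7, 21.6 and 20.2 CPM in floxed and 50.2, 36.6 and 46.3 CPM in knockout cells (log2 fold change 1.07, SE 0.17, edgeR adjusted p = 0.0375).

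Of the others past the threshold, named after their values were seen, Lcp1 was by far the most abundant. Lcp1, the actin-bundling protein L-plastin of blood cells, stood at 2447, 2278 and 2431 CPM in floxed and 4767, 3674 and 4301 CPM in knockout cells (log2 fold change 0.83, SE 0.12, edgeR adjusted p = 0.0334). Cdca7l, a MYC-interacting nuclear protein, had a log2 fold change of 0.74 and Abhd4, a lipid hydrolase, of 0.91 (edgeR adjusted p = 0.0458 and 0.0478). Agr3, of the protein disulfide isomerase family, had the largest fold change of the 25, with 0.338, 0.302 and 0.673 CPM in floxed and 2.47, 3.22 and 2.66 CPM in knockout cells (log2 fold change 2.63, SE 0.33, edgeR adjusted p = 0.0265), but its level was below the limit for naming. F830016B08Rik, a predicted gene, stood at 2.16, 1.59 and 2.14 CPM in floxed and 9.78, 6.08 and 7.30 CPM in knockout cells (log2 fold change 1.97, SE 0.27, edgeR adjusted p = 0.0265).

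Besides Gpr83, only Kcnmb4os2 fell past the threshold. It is annotated as a transcript opposite to Kcnmb4 and shares 693 exonic bases with the other strand. Its values were 5.34, 4.91 and 5.88 CPM in floxed and 1.39, 1.72 and 2.14 CPM in knockout cells (log2 fold change -1.62, SE 0.26, edgeR adjusted p = 0.0426), and after removal of the GC trend the change was -0.25 (edgeR adjusted p = 0.726, with 1.2e-05 to 0.781 as the range over 16 alternatives). The genes with the next smallest p among the lower ones did not pass. Cybrd1, a ferric reductase, stood at 71.5, 94.1 and 78.5 CPM in floxed and 20.1, 39.7 and 31.1 CPM in knockout cells (log2 fold change -1.43, SE 0.26, edgeR adjusted p = 0.0651). Samd3, a protein with a SAM domain, stood at 18.4, 19.0 and 17.9 CPM in floxed and 8.21, 8.01 and 8.41 CPM in knockout cells (log2 fold change -1.16, SE 0.22, edgeR adjusted p = 0.0651). Its 3 knockout libraries were nearly equal. Banp, a nuclear matrix and promoter-binding protein, stood at 99.2, 120.2 and 79.3 CPM in floxed and 27.0, 55.0 and 40.9 CPM in knockout cells (log2 fold change -1.28, SE 0.25, edgeR adjusted p = 0.0677), and Acrbp at 23.9, 26.4 and 22.4 CPM in floxed and 10.6, 13.9 and 12.3 CPM in knockout cells (log2 fold change -0.98, SE 0.17, edgeR adjusted p = 0.0562). In all 4 genes the groups did not overlap.

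Effector and recirculating Treg genes stood higher as a list. Of its 24 tested members, 2 rose (Cxcr6 and Il18r1), beside 0.185% of all genes. The median change was 0.80 against -0.02 over all tested genes. In 17 of the 24 the knockout libraries lay above all floxed ones, a state found in 15.3% of all genes, and in 1, Gata3 on the minus strand, they lay below, as in 9.70% of all genes. The members were chosen with earlier results of these data known. Il1rl1, the receptor for IL-33, stood at 39.8, 49.7 and 36.4 CPM in floxed and 151, 86.1 and 98.3 CPM in knockout cells (log2 fold change 1.41, SE 0.25, edgeR adjusted p = 0.0562). Il10, the suppressive cytokine, stood at 4.86, 9.59 and 6.55 CPM in floxed and 25.8, 13.1 and 18.4 CPM in knockout cells (log2 fold change 1.45, SE 0.30, edgeR adjusted p = 0.0751). Ccr2, a chemokine receptor, stood at 101, 135 and 87.5 CPM in floxed and 474, 219 and 329 CPM in knockout cells (log2 fold change 1.66, SE 0.32, edgeR adjusted p = 0.0704). None of these overlapped between the groups, and all fell short of the threshold. Icos, a costimulatory receptor, had a log2 fold change of 1.06 (edgeR adjusted p = 0.0692). The chemokine receptors Ccr6 and Ccr8 had 0.79 and 0.71 (edgeR adjusted p = 0.0728 and 0.0751). Without knockout library 2, 16 of 25 members passed higher and 2 lower, beside 7.18% and 16.5% of all genes in that setting. Knockout library 2 is the one that lay within the floxed range on the first principal component. No gene passed when any other female library was left out. Of 10 tested dendritic cell markers, 5, Cd74, Itgax and Ccl22 among them, also had all knockout libraries above the floxed ones, and 0 below. The median change of the 10 was 1.46. The sum of the markers other than Cd74 overlapped (158 to 370.4 CPM in floxed and 221 to 610 CPM in knockout libraries). The part of dendritic cells in this list was not tested.

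Cell cycle genes gave a like picture. Of 25 tested S phase genes, 3 rose (Pole, Rrm1 and Lig1), beside 0.185% of all genes, with a median of 0.70. In 16 the knockout libraries lay above all floxed ones and in 0 below, beside 15.3% and 9.70% of all genes. Mcm5, of the replicative helicase, stood at 372, 314 and 389 CPM in floxed and 587, 575 and 694 CPM in knockout cells (log2 fold change 0.79, SE 0.14, edgeR adjusted p = 0.0562). Of 26 G2 and M phase genes the median was 1.02, with 18 above and 1 below without overlap, though no member passed by edgeR, 17 having an unadjusted p under 0.05 (19.2% of all genes) and 11 passing in DESeq2 (5.69% of all genes). Cenpe, a mitotic motor, stood at 49.4, 44.8 and 50.1 CPM in floxed and 124, 92.0 and 115 CPM in knockout cells (log2 fold change 1.19, SE 0.23, edgeR adjusted p = 0.0651). Tpx2, a spindle assembly factor, stood at 67.5, 61.5 and 75.8 CPM in floxed and 167, 125 and 170.1 CPM in knockout cells (log2 fold change 1.18, SE 0.26, edgeR adjusted p = 0.0834). The 3 knockout libraries lay above the floxed ones in each of these genes. The list medians per knockout library were 0.79, 0.58 and 0.72 for S phase, 1.18, 0.78 and 0.82 for G2 and M phase and 1.18, 0.64 and 0.54 for the effector list, so knockout library 2 stood above the floxed libraries in all 3 lists. Without knockout library 2, 15 of 26 S phase and 13 of 26 G2 and M phase genes passed higher, and 2 and 1 lower. Over all genes 7.18% passed higher and 16.5% lower in that setting, and no gene passed with any other female library left out.

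**Figure D2:**
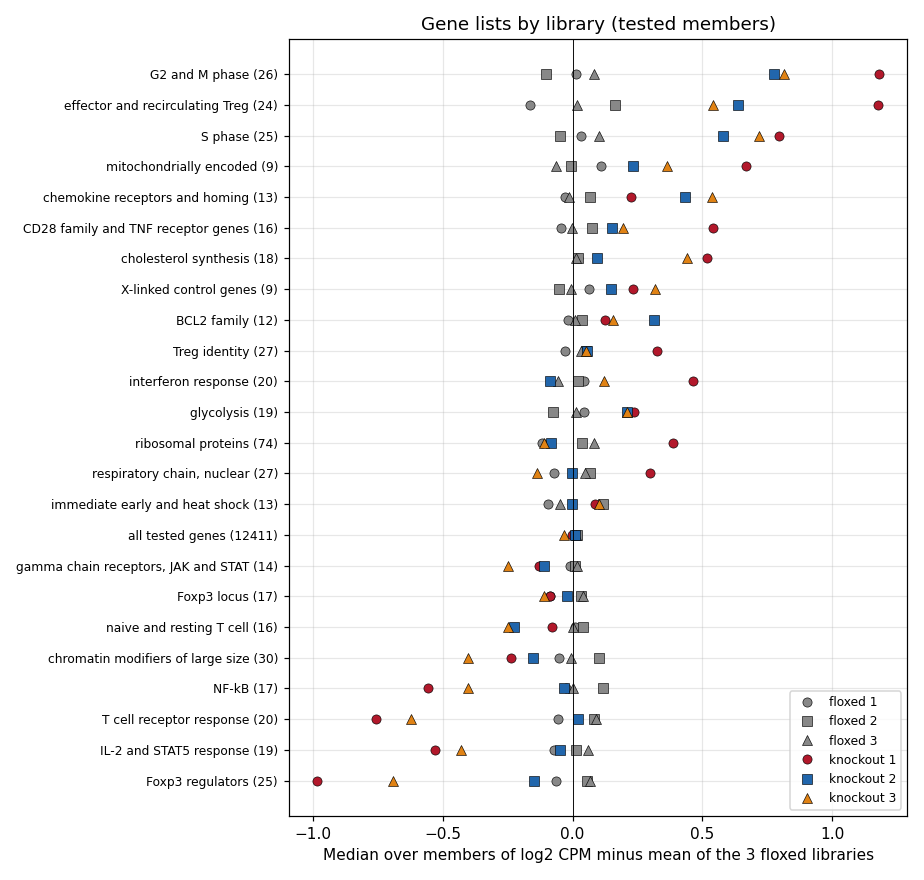
Median over the tested members of each gene list (number of members in brackets) of log2 CPM minus the mean of the 3 floxed libraries, per female library. For the 3 lists at the top all knockout libraries lie to the right of the floxed ones, while for the lists at the bottom knockout libraries 1 and 3 lie far to the left and knockout library 2 lies near 0.

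The lists with the lowest medians stood lower in knockout libraries 1 and 3 than in knockout library 2. The median of 25 regulators of Foxp3 was -0.54, that of 19 IL-2 and STAT5 response genes -0.41, that of 20 T cell receptor response genes -0.41 and that of 17 NF-kB genes -0.37, and no member passed by edgeR. At an unadjusted p under 0.05 there were 9, 4, 3 and 2 members in these lists, beside 19.2% of all tested genes, and 4, 2, 2 and 1 passed in DESeq2, beside 5.69%. The unadjusted counts of the IL-2, receptor response and NF-kB lists are thus near or below the share over all genes, while that of the regulators is above it. In 8 of the 25 regulators all knockout libraries lay below the floxed ones and in 2 above, beside 9.70% and 15.3% of all genes. For the IL-2, receptor response and NF-kB lists it was 3, 3 and 2 below and 1, 1 and 0 above. Per knockout library the medians were -0.98, -0.15 and -0.69 for the regulators, -0.53, -0.05 and -0.43 for the IL-2 list, -0.76, 0.02 and -0.62 for the receptor response and -0.56, -0.03 and -0.40 for NF-kB. By these medians knockout library 2 was near the floxed libraries in each. Stat5a, which carries the IL-2 signal to the nucleus, stood at 1137, 1164 and 1263 CPM in floxed and 312, 1008 and 411 CPM in knockout cells (log2 fold change -1.04, SE 0.34, edgeR adjusted p = 0.179). Id3, an inhibitor of E proteins, stood at 317, 290.2 and 304 CPM in floxed and 93.6, 243 and 118 CPM in knockout cells (log2 fold change -1.0, SE 0.30, edgeR adjusted p = 0.151). Libraries 1 and 3 were low in both genes, and library 2 lay just below the floxed range. Lef1, a factor of naive and immature T cells, stood at 941, 1012 and 981 CPM in floxed and 800.4, 764 and 812 CPM in knockout cells, all knockout values below the floxed ones (log2 fold change -0.30, SE 0.14, edgeR adjusted p = 0.276).

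The remaining lists are given mainly by their medians. Treg identity genes had 1 of 27 past the threshold, Gpr83, beside 0.201% of all genes, and a median of 0.17. Itgae, the integrin chain CD103, and Capg, an actin-capping protein, had log2 fold changes of 1.02 and 0.80 (edgeR adjusted p = 0.0751 and 0.0798). The median log2 fold change was 0.06 for ribosomal proteins, 0.07 for glycolysis, 0.14 for the interferon response and 0.26 for cholesterol synthesis. It was 0.34 for 13 chemokine receptor and homing genes and 0.27 for the CD28 and TNF receptor families. Of the 13, Cxcr6, which is also in the effector list, passed, beside 0.185% of all genes higher. In 7 of the 13 all knockout libraries lay above the floxed ones, beside 15.3% of all genes. The median was -0.28 for naive T cell genes, -0.33 for large chromatin modifiers and 0.04 for nuclear respiratory chain genes. In 8 of 19 glycolysis genes the knockout libraries lay above the floxed ones, as in 15.3% of all genes. Eno1 and Ldha, of the lower part of the pathway, had log2 fold changes of 0.42 and 0.49 (edgeR adjusted p = 0.112 and 0.112). Mitochondrially encoded genes had a median of 0.47, and their share of gene counts was 4.03, 2.77 and 3.40% in knockout against 2.64, 2.37 and 2.27% in floxed libraries. Several of these medians moved when the trend on GC content and transcript length described below was removed. They were then 0.49 for glycolysis, 0.44 for cholesterol synthesis, -0.02 for naive T cell genes, 0.12 for large chromatin modifiers, whose sign turned, and 0.05 for mitochondrially encoded genes, beside 0.06 over all genes.

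The BCL2 family, which sets the balance of cell survival and death, had members on both sides. The median of its 12 tested members was 0.24, and 0.37 with the GC trend removed. The knockout libraries lay above the floxed ones in 4 members and below in 2, beside 15.3% and 9.70% of all genes, and no member passed by edgeR, with 3 at an unadjusted p under 0.05 and 1 past the threshold in DESeq2 (19.2% and 5.69% of all genes). Bcl2l11, the death-promoting BIM, stood at 301, 268 and 250.2 CPM in floxed and 121, 214 and 155 CPM in knockout cells (log2 fold change -0.74, SE 0.19, edgeR adjusted p = 0.109), with knockout library 2 just below the floxed range. Bik, which also promotes death, stood at 1.55, 2.11 and 1.84 CPM in floxed and 3.08, 3.29 and 3.10 CPM in knockout cells (log2 fold change 0.78, SE 0.23, edgeR adjusted p = 0.145), on the higher side in all 3 knockout libraries. Bcl2a1d, a survival member on the minus strand whose reads can be shared with near-identical copies, and Bad, a death-promoting one, had log2 fold changes of 0.68 and 0.28 (edgeR adjusted p = 0.190 and 0.273), both without overlap.

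Around Foxp3, none of 17 tested locus genes, Foxp3 itself counted among them, passed the threshold by edgeR. The median was -0.14, but 0.08 with the GC trend removed, so that its sign turned. Of the 17, 5 had an unadjusted p under 0.05 (19.2% of all genes), Foxp3 included. The 1 past the threshold in DESeq2 (5.69% of all genes) was Foxp3 itself, so no neighbour passed there. Syp, which encodes synaptophysin, stood at 15.0, 26.0 and 21.9 CPM in floxed and 4.53, 15.4 and 7.45 CPM in knockout cells. Pim2, a kinase induced by cytokines, stood at 50.8, 109 and 103 CPM in floxed and 15.2, 81.6 and 16.9 CPM in knockout cells. The groups overlapped in both genes (edgeR adjusted p = 0.181 and 0.283). Gripap1 stood at 319.7, 290.5 and 286 CPM in floxed and 306, 266 and 329 CPM in knockout cells and had a log2 fold change of 0.01. Other neighbours thus differed in direction and size. The 351 tested genes of chromosome X had a median of 0.20 against -0.03 for the 11957 autosomal ones. Of the 351, 1, Zcchc18, passed, beside 0.201% of all tested genes. Knockout libraries lay above all floxed ones in 23.1% of the X-linked genes and below in 5.70%, beside 15.0% and 9.87% of the autosomal ones.

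The spread among the knockout libraries was itself patterned. Among 4951 genes of at least 4 log2 CPM, 829 stood at least 1 log2 unit under the lowest floxed library in knockout library 1 and 538 in knockout library 3, but 2 in knockout library 2. In the other direction 77, 53 and 17 genes stood at least 1 log2 unit above the highest floxed library in knockout libraries 1, 3 and 2. The 8 genes with the widest knockout spread, out of 3927 with a narrow floxed range, had knockout library 1 lowest and library 2 highest in all 8, and none separated the groups. Kmt5c, a histone H4 lysine methyltransferase, stood at 90.0, 118 and 121 CPM in floxed and 19.0, 104 and 30.9 CPM in knockout cells. Tnfrsf25, a TNF receptor of T cells also called DR3, stood at 321, 405 and 443 CPM in floxed and 78.3, 389 and 116 CPM in knockout cells. Engase, a cytosolic endoglycosidase, stood at 33.1, 36.8 and 42.2 CPM in floxed and 7.0, 42.5 and 17.5 CPM in knockout cells. Mrpl4, a mitochondrial ribosomal protein, stood at 137, 164 and 174 CPM in floxed and 37.5, 184 and 54.6 CPM in knockout cells. In these 4 genes knockout library 2 lay within or just above the floxed range.

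The genes with the narrowest knockout spread relative to their change were Orc1, Cep55, Knl1, Kif15, Pole, Exo1, Ccne2 and Cenpn, 8 of 81 candidates, all higher in knockout. Candidates had at least 4 log2 CPM on average, a floxed range under 0.5 log2 units and a change of at least 1 log2 unit, so genes of low level such as Samd3 and Agr3 were not ranked. Kif15, a mitotic kinesin, stood at 46.3, 43.0 and 48.8 CPM in floxed and 114, 95.9 and 112 CPM in knockout cells. Ccne2, the cyclin of S phase entry, stood at 36.3, 33.1 and 35.3 CPM in floxed and 74.2, 63.1 and 75.2 CPM in knockout cells, and Exo1, a DNA repair exonuclease, at 27.6, 22.2 and 25.2 CPM in floxed and 56.3, 47.5 and 52.2 CPM in knockout cells. Every knockout library, library 2 included, lay apart from the floxed ones in these genes, which follows from the way they were chosen. Beyond Orc1 and Pole they did not pass the threshold (edgeR adjusted p = 0.0562 for Kif15, 0.0718 for Ccne2 and 0.0834 for Exo1).

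**Figure D3:**
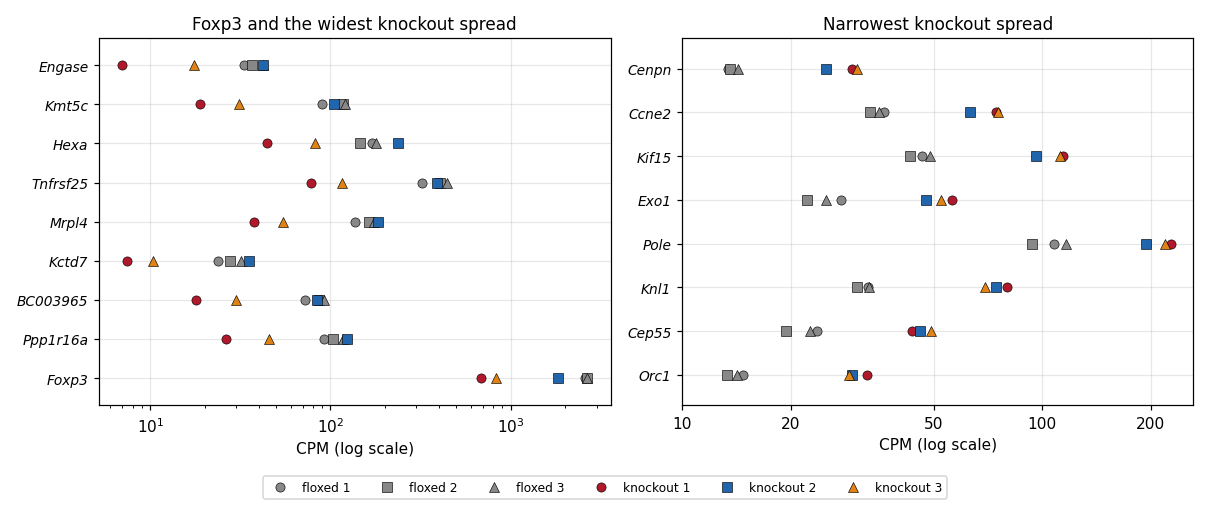
CPM (log scale) per female library of Foxp3 and the 8 genes with the widest range over the knockout libraries (left), and of the 8 genes with the narrowest range relative to their change (right). On the left knockout library 2 lies among or near the floxed libraries while libraries 1 and 3 lie far below. On the right all knockout libraries lie together above the floxed ones, and that they lie together and apart follows from the choice of genes.

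Base composition moved with this spread. The 8 genes of widest spread had a median GC content of 57.0% and the 8 of narrowest spread 45.5%, beside 48.7% over all tested genes and 45.9% for the 25 past the threshold. When genes of at least 4 log2 CPM were split into 10 groups by GC content, in the richest group (median 58.2%), knockout libraries 1, 2 and 3 stood at -1.23, -0.04 and -0.81 log2 units from the floxed mean. In the poorest group (39.3%) they stood at 0.39, 0.12 and 0.21. Of the 25 genes past the threshold, 20 reach that level, and none of the 20 lay in the 2 richest groups. When a smooth trend on GC content and transcript length was removed from each library, 47 genes passed, 42 higher and 5 lower, with 23 of the 25 among them. The median of the effector list was then 0.84, that of S phase 0.73 with 7 members past the threshold, and that of G2 and M phase 1.03. By contrast the medians of the lower lists came to -0.05 for Foxp3 regulators, -0.03 for the IL-2 list, 0.02 for the receptor response and -0.06 for NF-kB, beside 0.06 over all genes. Foxp3 was then at -0.88 (SE 0.17, edgeR adjusted p = 0.0551). Genotype and these library traits cannot be told apart in the female samples.

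**Figure D4:**
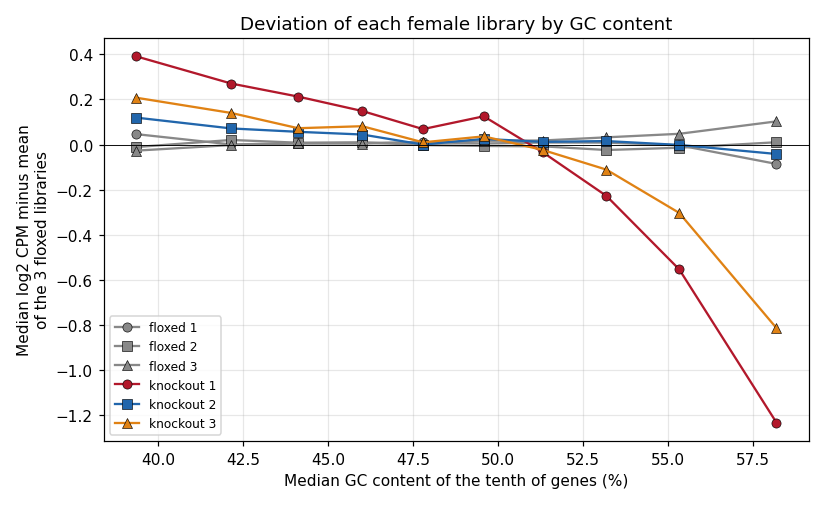
Median deviation of log2 CPM from the mean of the 3 floxed libraries, per female library, over 10 groups of genes of equal size ordered by GC content. Knockout libraries 1 and 3 fall to -1.23 and -0.81 in the richest group, while knockout library 2 stays near 0 with the floxed libraries.

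Leaving out knockout library 2 gave 935 higher (7.18%) and 2154 lower genes (16.5%). The set holds all 25, and its higher genes had a median GC content of 46.7% and its lower genes of 51.8%.

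Male libraries, none of which enter the female difference, gave the same direction for all 25 genes, beside 67.6% of all tested genes. All 25 also separated the male groups without overlap, against 14.3% of all tested genes. The spread that set the female calls was estimated over both sexes. Since the 25 were chosen by their female values, no comparison of size between the sexes was made over them. By log2 fold change, Cxcr6 had 2.39 in females and 1.83 in males, Il18r1 1.25 and 1.25, Map2 1.89 and 0.81, Hgf 1.56 and 0.61, Pole 1.02 and 0.75 and Gpr83 -1.0 and -0.48. The test of whether the knockout change differed between the sexes called 0 of 12411 genes (0%) by edgeR. Its smallest adjusted p was 0.892, with 339 genes at an unadjusted p under 0.05. DESeq2 also called 0, limma-voom called 1055, and 1108 (8.50%) were called by edgeR without female knockout library 2. Of these, 1091 (8.37% of all genes) had a lower knockout over floxed change in females than in males. The other 17 (0.130%) had a higher one.

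The genes with the smallest p in that test are given as log2 fold changes of each sex, with no call. Cirbp, a cold-inducible RNA-binding protein, had 0.33 in females and -0.52 in males. Oasl1, an interferon-induced gene, had 0.56 and -0.47, and Ak7, an adenylate kinase, 0.69 and -0.84. Ep300, a histone acetyltransferase, had -0.54 and 0.21, though its female value was 0.14 with the GC trend removed and ran from -0.66 to 0.14 over 17 alternatives. Banp had -1.28 and -0.09, and Ifi208, an interferon-inducible gene, 1.13 and 0.04. For Foxp3 the knockout change in females minus that in males was -0.77 (SE 0.43, edgeR adjusted p = 0.892).

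**Figure D5:**
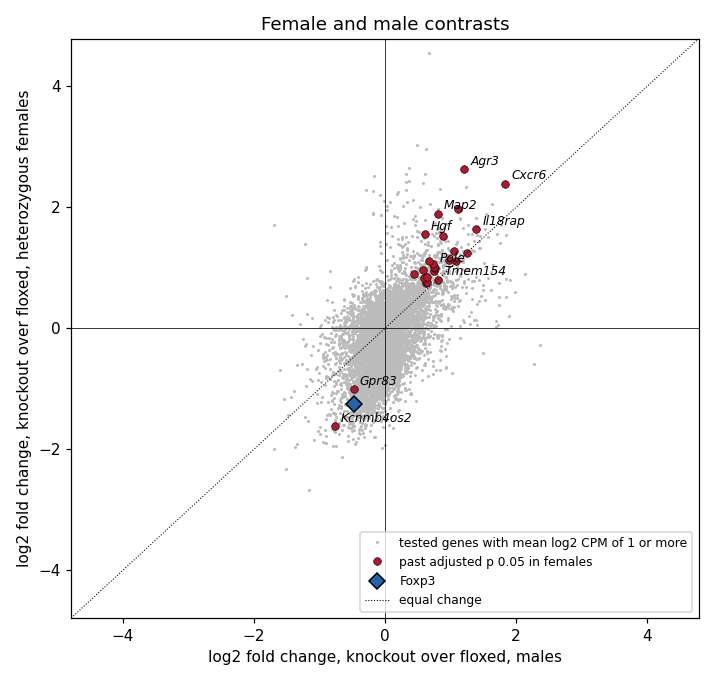
Log2 fold change of knockout over floxed in heterozygous females against that in males, for tested genes with a mean log2 CPM of 1 or more (grey), the genes past the threshold in females (red) and Foxp3 (blue). The 25 red points, chosen by the female value, share the sign of the male value, as do 67.6% of all tested genes.

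Markers of other cell types were low beside those of T cells but not equal between the groups. The summed level of 14 dendritic cell markers was 904, 469 and 372 CPM in floxed and 1192, 1363 and 1631 CPM in knockout libraries, without overlap, led by the antigen presentation gene Cd74 at 534, 299.6 and 214 against 971, 753 and 1187 CPM. Without Cd74 the sum was 370.4, 169 and 158 CPM and 221, 610 and 444 CPM, and overlapped. Sirpa, a receptor of myeloid cells, stood at 124, 40.8 and 86.9 CPM and 29.4, 119 and 62.7 CPM, and H2-Ab1, an MHC class II chain, at 126, 75.5 and 37.3 CPM and 55.1, 280.5 and 108 CPM, both overlapping. Itgax, the integrin chain CD11c, stood at 16.9, 5.06 and 4.90 CPM and 22.2, 21.7 and 28.8 CPM. Ccl22, a chemokine of dendritic cells, stood at 9.66, 6.87 and 5.02 CPM and 31.8, 45.6 and 99.7 CPM. Of 10 tested dendritic cell markers, the knockout libraries lay above all floxed ones in 5 and below in 0, beside 15.3% and 9.70% of all genes. The median log2 fold change of the 10 was 1.46. The defining markers Zbtb46, Xcr1 and Cd209a had no reads in any of the 6, but lie on the poorly counted minus strand. The 17 macrophage markers summed to 1340, 314 and 683 CPM and 877, 1095 and 1748 CPM, and overlapped. Immature double-positive thymocyte markers summed to 476, 359 and 361 CPM and 541, 385 and 828 CPM, highest in knockout library 3. Cd8a and Cd8b1 together gave 223, 165 and 173 CPM and 229, 171 and 317 CPM. Conventional CD4 helper markers summed to 82.5, 75.2 and 69.4 CPM and 128, 82.1 and 153 CPM, and overlapped. The median log2 fold change of their 3 tested genes was 0.96. B cell, granulocyte, thymic epithelial, erythroid and NK markers summed to at most 67.4 CPM in any of the 6. Knockout library 3 gave the highest of these sums except the erythroid one. It stood at 46.8, 67.4 and 55.7 CPM for B cell, granulocyte and thymic epithelial markers, against at most 28.3, 24.4 and 16.5 CPM in floxed libraries. The dendritic, macrophage, immature thymocyte, Cd8 and helper sums above were also highest in knockout library 3. The part of such cells in the rises above was not tested.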

How the data were processed

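RNA from sorted Treg cells was sequenced in 12 libraries, 3 per group. The deposited values are raw read counts per gene, which the authors made with CASAVA, STAR 2.5.2b and 2.3.0e and HTSeq 0.6.1p1 on mm9, per the submitters' processing notes. What each STAR version did, the gene annotation and the strand setting are not given in the sources used here. The 5 HTSeq summary entries were left out. Strand, chromosome, GC content and length came from GENCODE M21 by symbol (54586 of 55453 genes), which is on a later build, so its coordinates are not used. Promoter sequences are from RefSeq, GRCm38.p6.

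In edgeR 4.0.16 (R 4.3.3), genes were filtered with filterByExpr on the 4 groups, scaled by TMM and fitted by robust quasi-likelihood with 1 mean per group over all 12 libraries. Female knockout was tested against female floxed, and the difference between the female and male contrasts was tested, both with Benjamini-Hochberg adjustment at 0.05. The pipeline was run on simulated counts with known changes. They held no deviating knockout library and no GC trend, so that run does not cover these traits. A gene with all 3 knockout values above or below all 3 floxed values is called without overlap. Named were the 12 largest rises and falls past the threshold among genes that reach 1 log2 CPM on average, have no overlap and are no predicted model, the 6 of smallest p where fewer qualified, Foxp3 and its neighbours, Il2ra, Ctla4, Ikzf2, up to 4 members per list, the 6 of smallest p between the sexes, and the 8 genes of widest and of narrowest knockout spread. The 23 gene lists, 11 marker lists and the members were chosen with earlier results of these data known, and no list was tested as a set. Alternatives used RLE scaling, DESeq2 1.42.0, limma 3.58.1 voom with quality weights, other filters, a replicate block, libraries left out, plus-strand genes, and a GC content and length trend removed, for which 5222 genes gave the trend and 99.3% of the tested ones had values. Plots used Python 3.11.15 and matplotlib 3.10.9.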

Additional observations from a re-analysis of the deposited data

How the results depend on the processing

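The number of genes past the threshold in females, 25, was 706 with DESeq2, 5462 with limma-voom, 94 without a filter on low counts, 50 with at least 5 CPM in 3 libraries, 47 with the GC content and length trend removed and 16 on genes of the plus strand that share no exon with the minus strand, a setting chosen after seeing the data. It was 21 with RLE scaling and 30 on plus-strand genes. It was 0 in the 6 female libraries alone (2009 genes at an unadjusted p under 0.05), 0 without knockout libraries 1 and 3 (592), and ran from 0 to 3089 with each library left out in turn. With the replicate number as a block in the female libraries the count was 0 (2875 at an unadjusted p under 0.05). Same-numbered female libraries deviated together with r = 0.189, 0.279 and -0.225, and those of unlike number with r from -0.480 to 0.459. With 3 libraries per group these values cannot show whether libraries of the same number were paired.

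Foxp3 was at -1.25 with DESeq2, -1.65 with limma-voom and from -1.79 to -1.0 with each library left out in turn, and the value of -1.79, without knockout library 2, passed the threshold. With the replicate block it was -1.37 (edgeR adjusted p = 0.127). The difference in knockout change between the sexes gave 1055 genes with limma-voom and 0 with the replicate block within sex. It gave from 0 to 1108 with each library left out in turn. Where 1 library remained in a group, it is assumed to vary like the others. Depth limits genes of few CPM such as Agr3 and Kcnmb4os2. No value past the threshold changed sign under an alternative, while 39 values of 22 named genes that had no call did, Ep300, Il2ra, Gripap1, Engase and Mrpl4 among them. Among the values of named genes under alternatives, 1945 kept their side of the threshold, 277 came past it and 207 no longer passed, while 72 list medians moved beyond the spread of the knockout libraries and 319 did not. The cause of these changes was not tested.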
